A study of Canis rufus and Canis latrans with 56 samples.

Results

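Respiratory complex I is the entry point of the mitochondrial respiratory chain, and its nuclear-encoded subunits carry gene symbols that begin with NDUFA, NDUFB, NDUFC, NDUFS or NDUFV. By that rule, with the assembly factors (NDUFAF) left out, 35 of the 16121 named genes on the array were members, each measured by 1 probe. Each was assigned to 1 part of the enzyme, which gave 6 core subunits, 9 accessory subunits of the matrix arm and 20 accessory subunits of the membrane arm. The lists used for this held 7 core, 9 matrix arm accessory and 21 membrane arm accessory subunits, and 2 listed subunits had no probe by symbol. Counts by arm below are of the measured subunits. The former complex I gene NDUFA4 is annotated as COXFA4 and was not a member.

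Complex I takes electrons from NADH and passes them to ubiquinone, and it pumps protons across the inner mitochondrial membrane. Its matrix arm holds the flavin, a chain of iron-sulfur clusters and the ubiquinone site, and its membrane arm holds the pumps. The core subunits of the matrix arm carry out the electron transfer, and the accessory subunits surround and stabilise the enzyme. In blood, white cells, platelets and young red cells contain mitochondria, and mammalian red cells lose theirs as they mature.

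The measured animals were 1 coyote (Canis latrans), a free-ranging female, and 13 red wolves (Canis rufus), of which 6 were captive and 7 free-ranging. RNA came from whole blood kept in RNAlater, and each animal was measured on 4 human Illumina bead arrays. The study concerned captivity, but the labels used here give neither status nor sex for each wolf, so neither was compared. Collection in the wild is noted for 3 of the wolves, 11136, 111080 and 11310, and for the coyote, but since 7 wolves were free-ranging, wolves without it need not be captive, and no groups were formed from it. The 4 arrays of an animal are technical repeats, so each animal counts once.

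A level below is a log2 intensity relative to the mean of the array, given per animal after slide differences were removed, and a difference of 1 is a doubling of intensity. The probes were made for human transcripts, so a level depends on how well a probe binds canid RNA, and levels of different probes do not rank the subunits. Genes of liver and skeletal muscle, of which 38 were measured, gave a background bound: the highest of their mean levels, 0.396 for HPX, the haem carrier of plasma. Of all 24354 probes, 2064 (8.47%) had a mean level above it. In whole blood, fewer cells of a type and less RNA per cell cannot be told apart.

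The signal range of an array differed between animals: its 95th percentile averaged 0.673 in the coyote and from 0.381 in wolf 11136 to 0.866 in wolf 111080 among the wolves. Unlike the levels, these averages still hold slide differences, so animal and slide placement are mixed in them. The arrays of wolf 11136 lay on slides 1, 3, 5 and 6. Over the probes above the bound, the median effects of these slides were -0.13, -0.16, 0.03 and -0.24. Defining white cell markers were mostly within background on these human probes. Above the bound lay 7 of 19 measured red cell genes and 1 of 16 platelet genes. Of white cell markers it was 1 of 22 for neutrophils, 2 of 14 for monocytes, 2 of 18 for T cells and 0 of 12 for B cells. The red cell genes were HBA1, HBA2, HBB, HBD, AHSP, GATA1 and BNIP3L, and the platelet gene was PF4.

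Of the complex I subunits, 5 of 35 had a mean level above the bound. They were the core subunits NDUFV2, NDUFV1, NDUFS3 and NDUFS7 and the membrane arm subunit NDUFB9, so 4 of 6 core, 0 of 9 matrix arm accessory and 1 of 20 membrane arm accessory subunits. NDUFV2, NDUFV1 and NDUFS7 were above the bound in the coyote and in all 13 wolves. NDUFB9 was above it in the coyote and 11 wolves, and NDUFS3 in the coyote and 9 wolves. Below it on average but above it in some wolves were NDUFA3 (6 wolves), NDUFC2 (5 wolves), NDUFA10 and NDUFB7 (1 wolf each). The remaining 26 members were above it in no animal.

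**Figure D1:**
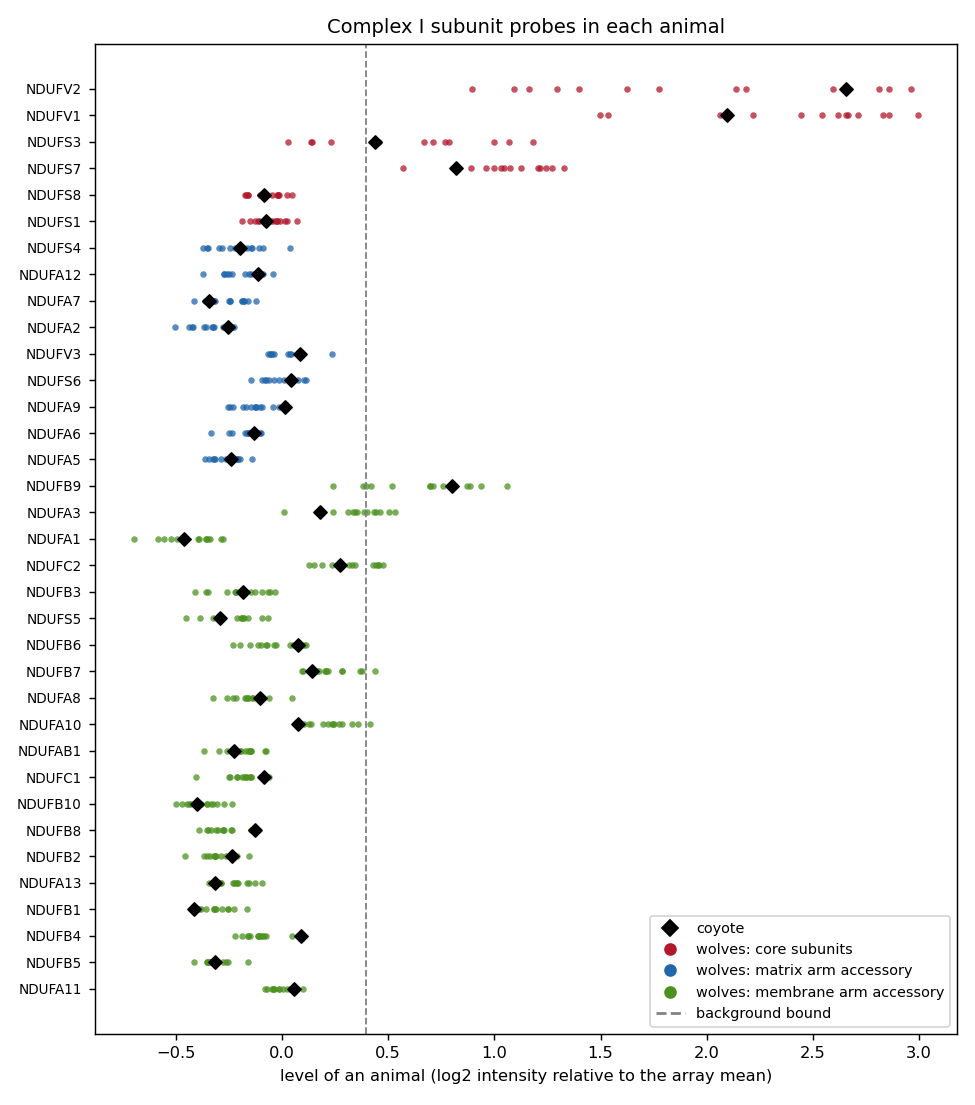
Level of each of the 35 complex I subunit probes in the coyote (black diamonds) and the 13 wolves (coloured points, by arm of the enzyme); the horizontal axis is log2 intensity relative to the array mean, and the dashed line is the background bound of 0.396. NDUFV2, NDUFV1 and NDUFS7 lie right of the line in every animal, while 26 subunits lie left of it in every animal.

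The first comparison asked which subunits differed among the 13 wolves by more than their repeated arrays, once slide differences were removed. With limma's moderated F test and Benjamini-Hochberg adjustment over all 24354 probes, 6 of 35 members differed at an adjusted p under 0.05, beside 11.2% of all probes and 12.8% of the brightest probes of all named genes. All 5 members above the bound differed, beside 78.1% of the probes above it, so with 5 members this count is near its background. Below the bound 1 of 30 members differed, NDUFA3, beside 5.02% of the probes there. By arm, 4 of 6 core, 0 of 9 matrix arm accessory and 2 of 20 membrane arm accessory subunits differed.

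NDUFV2, an iron-sulfur subunit of the head of the matrix arm where NADH is oxidised, had the largest SD of the members over wolves. It stood at 2.96 in wolf 11206, 2.86 in 11270, 2.81 in 11310, 2.59 in 111080, 2.18 in 11105, 2.14 in 10537, 1.78 in 11136, 1.62 in 10632, 1.40 in 11148, 1.29 in 11274, 1.16 in 11275, 1.09 in 10406 and 0.89 in 11273. The widest gap between neighbours in this order lay between wolves 111080 and 11105, and the arrays of wolf 11273 (0.63 to 1.14) lay wholly below those of wolf 11206 (2.61 to 3.10). The mean was 1.91 ± 0.73 (SD, n = 13 wolves), against an SD of 0.20 between arrays of an animal after removal of slide differences. Here and below, SDs between arrays and shares of variance leave out slide differences. The difference among wolves had an adjusted p of 7.56e-24 (limma), and 0.922 of the variance lay between wolves. From the lowest to the highest wolf the intensity differed 4.20-fold.

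NDUFV1, the subunit that binds NADH and the flavin and sits beside NDUFV2 in the enzyme, was ordered otherwise. It stood at 3.0 in wolf 11275, 2.86 in 11273, 2.83 in 11105, 2.71 in 10406, 2.67 in 10537, 2.65 in 11274, 2.62 in 11148, 2.54 in 11206, 2.45 in 111080, 2.22 in 10632, 2.06 in 11270, 1.54 in 11310 and 1.5 in 11136. Wolves 11310 and 11136 stood apart below the other 11. Its mean was 2.43 ± 0.48 (SD, n = 13 wolves) with an SD of 0.28 between arrays after removal of slide differences (adjusted p = 2.18e-10, limma), and the wolves spanned 2.82-fold. Before that removal the arrays of a wolf could spread more widely, as in wolf 11273, from 1.65 to 4.32. Wolf 11273 was lowest of all wolves for NDUFV2 and second highest for NDUFV1.

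NDUFS3, a core subunit near the ubiquinone site, stood at 1.18 in wolf 11275, 1.07 in 10406, 1.00 in 11105, 0.78 in 11274, 0.77 in 11273, 0.71 in 10537, 0.67 in 11148, 0.46 in 10632, 0.44 in 11270, 0.23 in 11136, 0.14 in 111080, 0.14 in 11206 and 0.03 in 11310. The 4 lowest wolves were below the background bound, so their order is not read as one of transcript levels. The mean was 0.59 ± 0.38 (SD, n = 13 wolves), against 0.23 between arrays (adjusted p = 5.55e-11, limma), and the lowest and highest values differed 2.22-fold, with the low end in background.

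NDUFB9, an accessory subunit of the membrane arm from the LYR motif family, stood at 1.06 in wolf 11270, 0.94 in 11310, 0.89 in 11206, 0.87 in 10537, 0.76 in 11105, 0.71 in 111080, 0.70 in 11136, 0.70 in 10632, 0.52 in 10406, 0.42 in 11274, 0.40 in 11148, 0.38 in 11275 and 0.24 in 11273. The wolves high for NDUFV2 were also high here, wolf 11273 was lowest for both, and wolves 11275 and 11273 were below the bound. The mean was 0.66 ± 0.25 (SD, n = 13 wolves) with 0.17 between arrays (adjusted p = 3.42e-07, limma), and the lowest and highest values differed 1.76-fold, with the low end in background.

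NDUFS7, which carries the last iron-sulfur cluster before ubiquinone, varied less. Its lowest wolf, 11136, stood at 0.57, the median was 1.07 and the highest, 11273, stood at 1.33, with a mean of 1.07 ± 0.20 (SD, n = 13 wolves) and an SD of 0.23 between arrays. The adjusted p was 0.0165 (limma) and 0.291 of the variance lay between wolves. The call rested on wolf 11136: without it the SD was 0.14 and the adjusted p 0.49. NDUFA3, a small membrane arm subunit, had its lowest level, 0.01, in the same wolf, a median of 0.39 and its highest level, 0.53, in wolf 111080. Its mean was 0.37 ± 0.13 (SD, n = 13 wolves; adjusted p = 0.0206, limma), and without wolf 11136 the adjusted p was 0.671. Wolf 11136 had the narrowest signal range and was the lowest wolf for 40.4% of the probes above the bound; the part of its signal range in these calls was not tested.

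**Figure D2:**
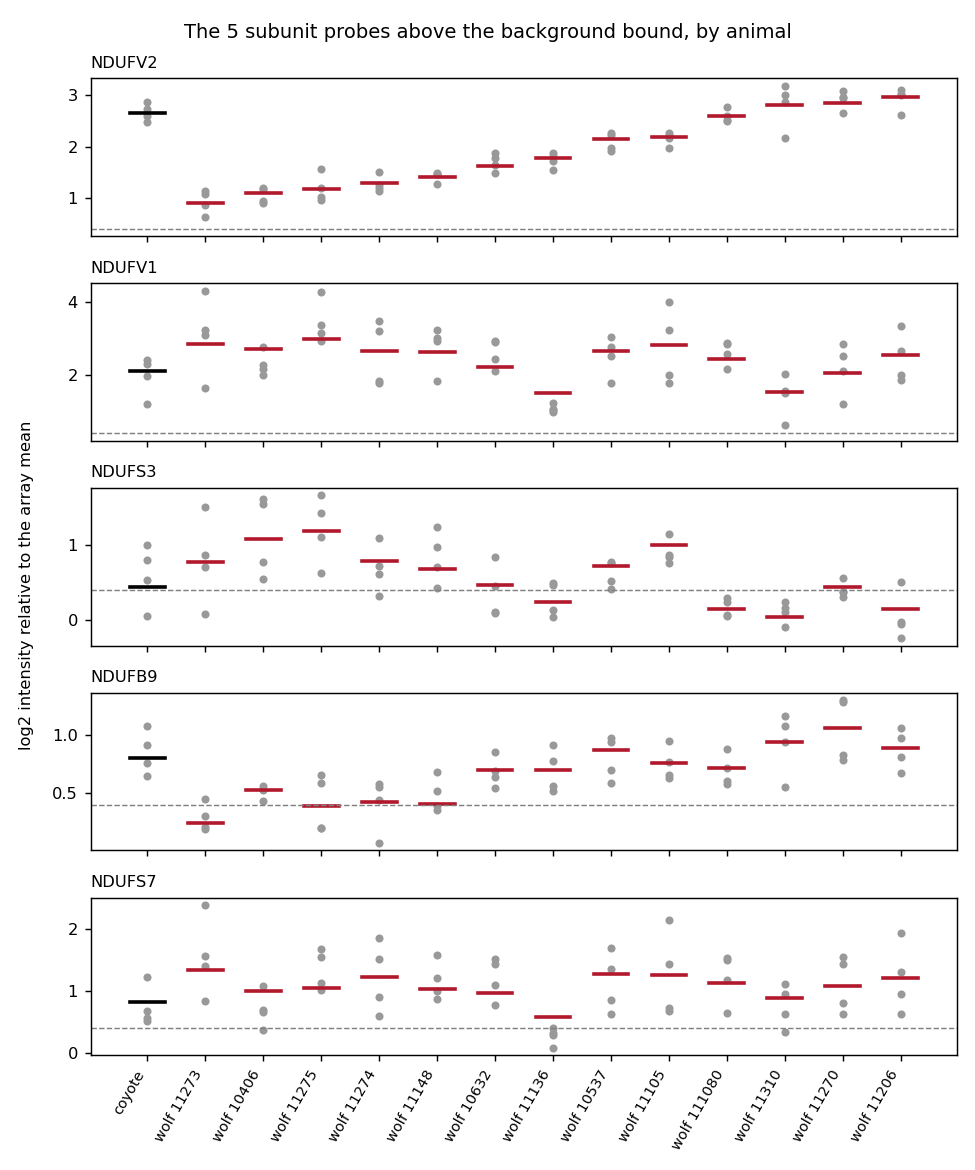
The 5 complex I subunits above the background bound (dashed line at 0.396), with each array as a grey point and the level of the animal after removal of slide differences as a bar (coyote black, wolves red), on a log2 axis; wolves are ordered by NDUFV2. The NDUFB9 bars follow the NDUFV2 order, while NDUFS3 is high in several of the wolves low for NDUFV2; where the arrays of an animal lay mostly on slides with low signal for a probe, its bar can lie above its points, as for NDUFV1 in wolf 11136.

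The 2 core subunits below the bound, NDUFS1 and NDUFS8, both carry iron-sulfur clusters, and neither passed the test. NDUFS1 ranged over wolves between -0.19 and 0.07 (median -0.03, adjusted p = 0.714, limma), and NDUFS8 between -0.17 and 0.05 (median -0.05, adjusted p = 0.587, limma). No level of theirs reached the bound in any animal.

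None of the 9 matrix arm accessory subunits passed the test. NDUFS4, which helps to hold the NADH-oxidising head in place, had the largest SD of the 9, 0.12 (median -0.22, adjusted p = 0.148, limma). NDUFS6 binds zinc and ranged between -0.15 and 0.12, and NDUFV3, a small subunit of the head, between -0.07 and 0.24. NDUFA9, which holds a nucleotide in its dehydrogenase-like fold, ranged between -0.25 and -0.01, and NDUFA2, with a thioredoxin-like fold, between -0.50 and -0.22. NDUFA6, another LYR motif subunit, ranged between -0.33 and -0.10. NDUFA5, NDUFA7 and NDUFA12, which line the matrix arm, had SDs of 0.07, 0.09 and 0.09.

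Among the other 18 membrane arm subunits, the smallest adjusted p was that of NDUFC2, 0.0855 (limma), with wolves between 0.13 and 0.47 and a median of 0.33. NDUFB7, one of the subunits on the intermembrane side, ranged between 0.10 and 0.44 (adjusted p = 0.144, limma). NDUFA10, with a nucleoside kinase-like fold, ranged between 0.11 and 0.41, with its lowest level again in wolf 11136 (adjusted p = 0.33, limma). NDUFA8 and NDUFS5, also on the intermembrane side, had adjusted p-values of 0.212 and 0.193 (limma). NDUFA1, needed for assembly of the membrane arm, had the lowest level of its own range in wolf 10537, -0.70, and an adjusted p of 0.427 (limma). NDUFAB1, the mitochondrial acyl carrier protein, was counted here with the membrane arm only. It ranged between -0.37 and -0.08, and NDUFA13, also known as GRIM-19, between -0.34 and -0.09. The other 10 accessory subunits of this arm were NDUFA11, NDUFB1, NDUFB2, NDUFB3, NDUFB4, NDUFB5, NDUFB6, NDUFB8, NDUFB10 and NDUFC1. None of these passed, with SDs over wolves from 0.05 (NDUFA11) to 0.12 (NDUFB3) and a smallest adjusted p of 0.168 (NDUFB6, limma).

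Over all 30 members at or below the bound, SDs over wolves ran between 0.05 and 0.13 with a median of 0.0816, beside a median SD between arrays of 0.144. The lowest and highest wolves of such a member differed by 1.13-fold to 1.44-fold. Of these 30, 7 had an unadjusted p under 0.05, beside 15.9% of the probes at or below the bound. The median share of variance between wolves was 0.0595 over all 35 members, beside 0.0705 over all named genes, and 0.689 over the 5 above the bound, beside 0.522 over all probes above it. Their median SD was 0.38, beside 0.24 over all probes above the bound.

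The second comparison asked whether the subunits that differed among wolves did so together. For the 4 members with the largest SDs, the levels of the 13 wolves were correlated in pairs, with the signal range and with scores of 5 cell type lists, 30 relations in all, with p-values from 100000 permutations and Benjamini-Hochberg adjustment over the 30. Of these, 12 passed an adjusted p under 0.05. All values of an animal come from the same arrays. Values of r within slides rest on repeated arrays of the same wolves, so the slides are not independent repeats of a relation. Values below the bound were kept: NDUFS3 in wolves 11136, 111080, 11206 and 11310, and NDUFB9 in wolves 11275 and 11273. The low ends of NDUFS3 and NDUFB9 in these relations therefore lie in background.

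NDUFV2 and NDUFB9, in different arms of the enzyme, rose and fell together over the 13 wolves (Pearson r = 0.911, permutation p = 3e-05, adjusted 0.0003; Spearman rho = 0.923, adjusted permutation p = 0.00045). Without the 2 wolves farthest from the median of NDUFV2, 11206 and 11270, r was 0.887. Within each of the 7 slides r was positive, from 0.728 to 0.936. NDUFV1 and NDUFS3 also went together (r = 0.763, permutation p = 0.00162, adjusted 0.00972; rho = 0.852, adjusted permutation p = 0.00352). Without wolves 11136 and 11310 r was 0.706, and within slides it ran from 0.465 to 0.766. With no slide term r was 0.596 and the adjusted permutation p 0.0665, so the call depends on the slide term.

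NDUFV2 and NDUFS3 went in opposite directions (r = -0.717, permutation p = 0.00807, adjusted 0.0269; rho = -0.731, adjusted permutation p = 0.0241). The sign was negative within all 7 slides, from -0.912 to -0.356, and r was -0.683 without wolves 11206 and 11270. Wolves 11206, 11310 and 111080, high for NDUFV2, were below the bound for NDUFS3. The order of NDUFS3 at that end is not read as one of transcript levels. Leaving out wolf 11206, 11275 or 11310 gave r of -0.67, -0.68 and -0.66 with adjusted permutation p-values of 0.0582, 0.0591 and 0.0638. NDUFB9 had r = -0.561 with NDUFV1 and -0.589 with NDUFS3, with adjusted permutation p-values of 0.0878 and 0.0743, and neither passed. After quantile normalization NDUFB9 with NDUFV1 had r = -0.882 (adjusted permutation p = 0.000643), and with no slide term NDUFB9 with NDUFS3 had r = -0.666 (adjusted permutation p = 0.0405).

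NDUFV2 and NDUFV1 are direct partners in the enzyme, and their probes had r = -0.477 over the 13 wolves (permutation p = 0.103, adjusted 0.171; rho = -0.61, adjusted permutation p = 0.0608), which did not pass. It was -0.531 without wolves 11206 and 11270, and negative within 6 of 7 slides. Once the arrays were given equal spread by quantile normalization, r was -0.944 (adjusted permutation p = 0.00015). Wolf 11136, with the narrowest signal range, was low for NDUFV1 and near the middle for NDUFV2. NDUFS7 had r = 0.77 with NDUFV1, 0.359 with NDUFS3, -0.16 with NDUFB9 and -0.02 with NDUFV2, given as a description.

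**Figure D3:**
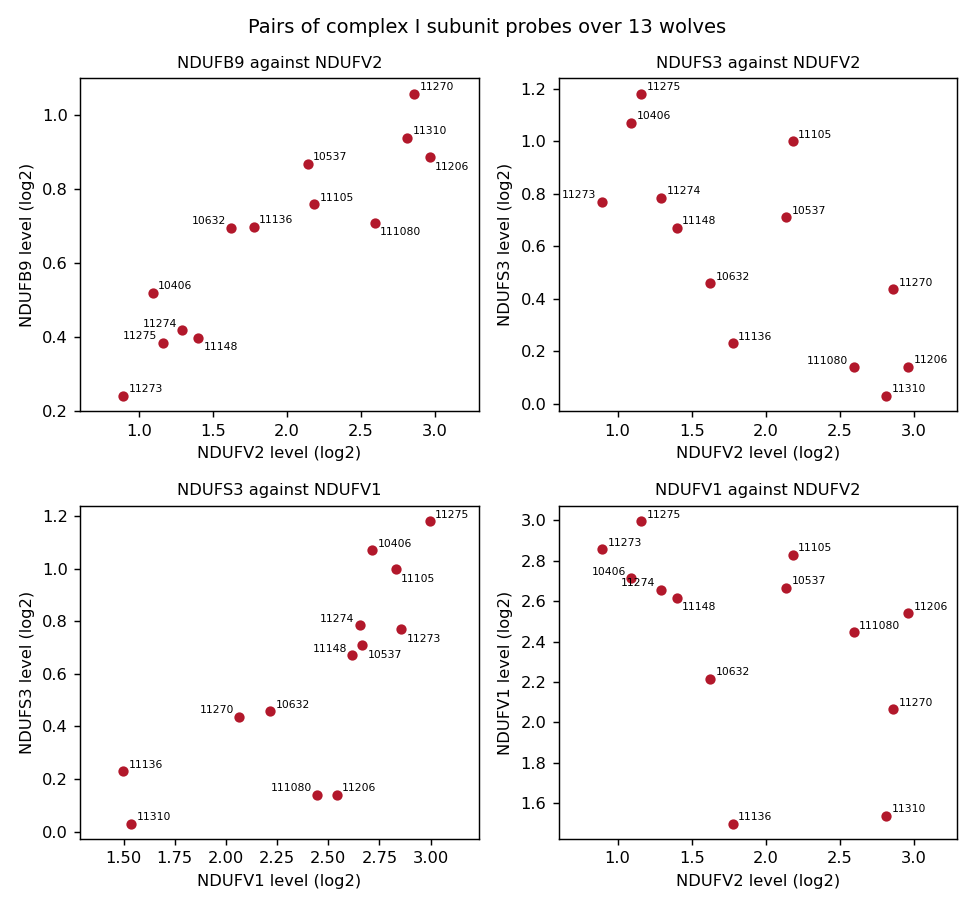
Levels of 4 pairs of complex I subunit probes in the 13 wolves, each point a wolf with its number, on log2 axes. NDUFB9 lies along a rising line with NDUFV2 (r = 0.911) and NDUFS3 with NDUFV1 (r = 0.763), NDUFS3 falls with NDUFV2 (r = -0.717), and NDUFV1 and NDUFV2 show a scattered negative relation (r = -0.477, not past the test).

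Over the 10 pairs of the 5 members above the bound, the median r was -0.0901, with 4 pairs positive, beside a median of 0.334 over the 2129016 pairs of all 2064 probes above it. The 5 named genes whose pattern over the 13 wolves was most like that of NDUFV2, of 1596 with a brightest probe above the bound, were SRSF5 (a splicing factor, r = 0.984), FBXO33 (an F-box protein, 0.982), MCTS1 (a translation re-initiation factor, 0.981), APH1A (a gamma-secretase subunit, 0.978) and NAA20 (an N-terminal acetyltransferase, 0.975). None of them is a complex I gene. NDUFB9 ranked 176th in that order, NDUFS7 828th, NDUFV1 1332nd and NDUFS3 1576th, and the median r of the 1596 genes with NDUFV2 was 0.0447.

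The third comparison set the same 4 subunits beside the cell type lists. A list score is the mean over the measured genes of the list of the animal's level minus the mean of the wolves. The red cell score was -0.08 in the coyote and ran from -0.19 in wolf 11310 to 0.17 in wolf 11105 among the wolves. Its wolves above 0.1 were 11105, 11273, 11275 and 10406, and those below -0.1 were 11136 and 11310.

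NDUFV1 rose with the red cell score over the 13 wolves (r = 0.856, permutation p = 2e-05, adjusted 0.0003; rho = 0.929, adjusted permutation p = 0.00045). It was 0.845 without wolves 11105 and 11273, and 0.749 to 0.944 within the 7 slides. NDUFS3 rose with it too (r = 0.92, permutation p = 2e-05, adjusted 0.0003; rho = 0.901, adjusted permutation p = 0.0007), with 0.938 without the same pair of wolves and 0.607 to 0.968 within slides. Wolves 11310 and 11136, lowest for the score, were below the bound for NDUFS3. With the score made only from the 7 red cell genes above the bound, r was 0.885 for NDUFV1 and 0.924 for NDUFS3.

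NDUFV2 fell as the red cell score rose (r = -0.671, permutation p = 0.0158, adjusted 0.0431; rho = -0.67, adjusted permutation p = 0.0467). The sign was negative within all 7 slides, from -0.961 to -0.318, and r was -0.759 without wolves 11105 and 11273. This call was lost in 14 of 25 alternatives, with r between -0.94 and -0.61 over all 25; with the 7 genes above the bound it was -0.616 (adjusted permutation p = 0.0755). NDUFB9 had r = -0.627 and did not pass (adjusted permutation p = 0.0573), but it passed in 7 of 25 alternatives, such as no slide term (-0.71, 0.0261) and quantile normalization (-0.69, 0.0233).

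**Figure D4:**
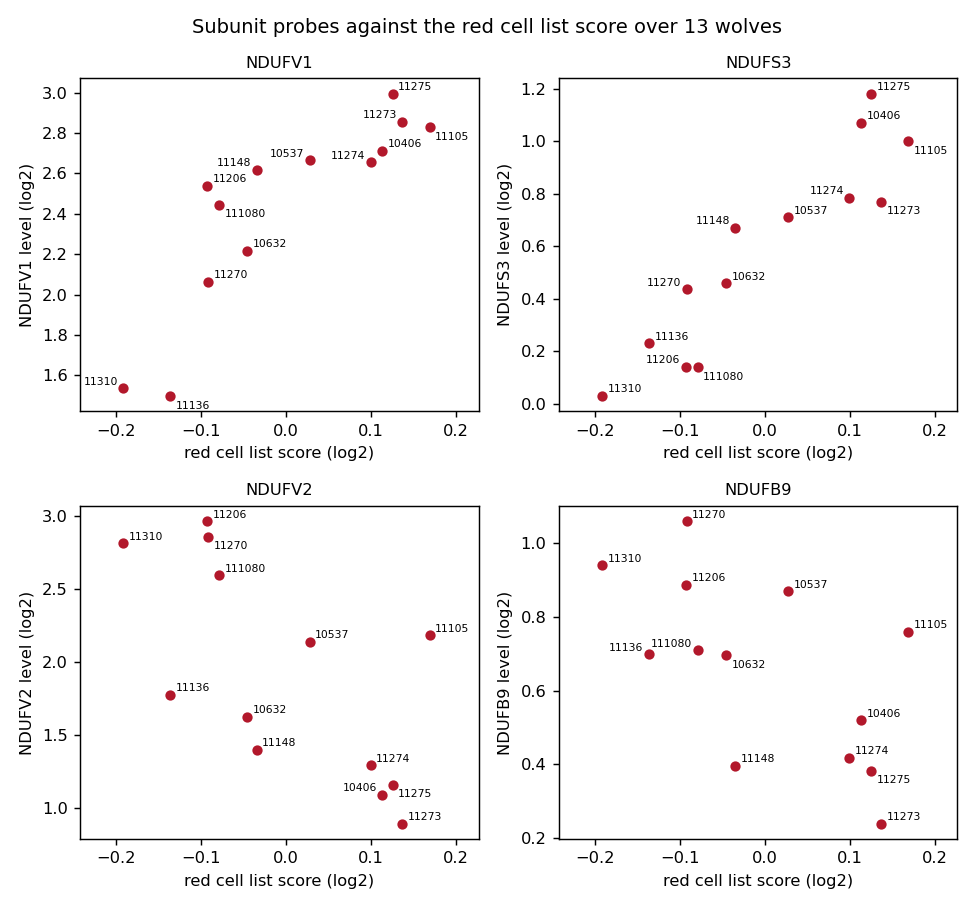
Level of NDUFV1, NDUFS3, NDUFV2 and NDUFB9 against the red cell list score in the 13 wolves, each point a wolf with its number, on log2 axes. NDUFV1 (r = 0.856) and NDUFS3 (r = 0.92) rise with the score, NDUFV2 falls with it (r = -0.671), and the falling relation of NDUFB9 (r = -0.627) did not pass the test.

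The platelet score, of which PF4 alone was above the bound, rose with NDUFV1 (r = 0.816, permutation p = 0.00054, adjusted 0.00405; rho = 0.747) and fell with NDUFB9 (r = -0.761, adjusted permutation p = 0.0122; rho = -0.681) and NDUFV2 (r = -0.647, adjusted permutation p = 0.0451; rho = -0.659). Without wolves 11273 and 11136 these were 0.783, -0.765 and -0.693. With PF4 alone, r was 0.923 for NDUFV1 but -0.39 for NDUFB9 and -0.32 for NDUFV2, so both negative calls were lost. Without wolf 11273, NDUFB9 (adjusted permutation p = 0.0823) and NDUFV2 (0.143) no longer passed. NDUFS3 had r = 0.589 (adjusted permutation p = 0.0743), and it passed with PF4 alone (r = 0.641, 0.048), with 75th percentile centring (0.67, 0.037) and after quantile normalization (0.657, 0.0327). The red cell and platelet scores went together over the 13 wolves (r = 0.708, adjusted permutation p = 0.012 over 3 pairs of scores chosen after their values were seen), so which of the 2 lists NDUFV1 went with cannot be told apart.

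The monocyte score, with FCER1G and TYROBP above the bound, rose with NDUFV2 (r = 0.748, permutation p = 0.00237, adjusted 0.0118; rho = 0.808) and NDUFB9 (r = 0.716, adjusted permutation p = 0.0184; rho = 0.736). Without wolves 11310 and 11273, at the ends of this score, r was 0.63 and 0.541. Without wolf 11273 alone the adjusted permutation p-values were 0.0597 and 0.0934. With the 2 genes above the bound r was 0.732 for NDUFV2 (adjusted permutation p = 0.0164) and 0.549 for NDUFB9 (0.101), and after quantile normalization it was 0.547 for NDUFB9 (0.0935). The call of NDUFB9 was lost in 5 of 25 alternatives. Within slides r was positive on 6 of 7 for both. Over the 13 wolves the platelet and monocyte scores went in opposite directions (r = -0.701, adjusted permutation p = 0.012 over the same 3 pairs of scores). The red cell and monocyte scores had r = -0.5 (adjusted permutation p = 0.0827). Whether NDUFV2 and NDUFB9 went with the monocyte list or against the platelet list therefore cannot be told apart. NDUFV1 (r = -0.467) and NDUFS3 (r = -0.522) did not pass (adjusted permutation p = 0.172 and 0.12), and 23 of 25 alternatives were unchanged for each. NDUFV1 passed after quantile normalization (r = -0.692, adjusted permutation p = 0.0204). NDUFS3 passed without wolf 11105 (r = -0.709, adjusted permutation p = 0.0199) and without slide 2 (r = -0.631, adjusted permutation p = 0.0459).

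For the neutrophil and T cell scores 0 of 8 relations passed, with r between -0.369 and 0.306 and adjusted permutation p-values from 0.323 to 0.667. With the neutrophil score made from NCF1, its only gene above the bound, NDUFV1 passed (r = 0.862, adjusted permutation p = 0.00468). With the signal range, which still holds slide differences, NDUFV1 had r = 0.665 (adjusted permutation p = 0.0431) but rho = 0.368 (adjusted permutation p = 0.315). Its r was 0.427 without wolf 11136 (adjusted permutation p = 0.262) and ran from 0.0417 to 0.806 within the 7 slides. NDUFV2 (0.184), NDUFS3 (0.183) and NDUFB9 (-0.0522) did not pass. The part of cell make-up and of signal range in these relations was not tested.

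The other genes of the respiratory chain were taken from lists, and up to 2 that passed the F test among wolves are named for each. Of the complex I assembly factors 2 of 16 passed, NDUFAF1 (SD over wolves 0.15, adjusted p = 0.016, limma) and TMEM186 (SD 0.14, adjusted p = 0.0127, limma). Of complex II, the succinate dehydrogenase, 0 of 3 passed, and of complex III, cytochrome c reductase, 2 of 8 passed, UQCRC1 (SD 0.42) and UQCRB (SD 0.18). Of complex IV, cytochrome c oxidase, 3 of 15 passed, with COX8A (SD 0.32) and COX6C (SD 0.18) widest. Of complex V, the ATP synthase, 6 of 16 passed, all of them above the bound, and ATP5F1A (SD 0.63) and ATP5F1B (SD 0.50), the alpha and beta subunits of its catalytic head, were widest. Of regulators of mitochondrial biogenesis 2 of 12 passed, YY1 (SD 0.56) and GABPB1 (SD 0.14). These counts stand beside 12.8% of the named genes and 78.1% of the probes above the bound. Wolf 11136 was lowest in 7 of these 15 genes, beside 40.4% of the probes above the bound: TMEM186, UQCRC1, UQCRB, COX8A, COX6C, YY1 and GABPB1. It was lowest in 0 of the 6 complex V genes and highest in COX6B2, the remaining complex IV gene.

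The fourth comparison set the coyote against the 13 wolves. With 1 coyote its own spread was assumed to equal that of the wolves, on 12 residual degrees of freedom. The SEs and intervals below are limma's moderated ones, which also draw on the spread of other probes. No member passed limma's test (0 of 35; smallest adjusted p 0.998), beside 0.00411% of all probes, and 1 of 35 had an unadjusted p under 0.05, beside 3.74%. That member was higher in the coyote, beside 1.88% of probes higher and 1.86% lower at this p. The coyote was higher than the mean of the wolves in 18 members and lower in 17, with a median difference of 0.0133 on the log2 scale, beside -0.0032 over all named genes. By arm, it was higher in 1 of 6 core, 8 of 9 matrix arm accessory and 9 of 20 membrane arm subunits. These counts stand beside 7827 of 16121 named genes and 757 of 2064 probes above the bound. No matrix arm accessory subunit was above the bound in any animal.

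NDUFV2 stood at 2.66 in the coyote, against a lowest, median and highest wolf of 0.89, 1.78 and 2.96. The coyote ranked 4 of the 14 animals, and its difference of 0.75 (SE 0.61, 95% interval -0.50 to 2.00) was within the spread of the wolves. NDUFV1 stood at 2.10 in the coyote, against 1.5, 2.62 and 3.0 in the wolves, a difference of -0.34 (SE 0.55, 95% interval -1.45 to 0.78). NDUFS7 stood at 0.82 in the coyote, below all wolves but 11136, against 0.57, 1.07 and 1.33 in the wolves (difference -0.25, SE 0.24, 95% interval -0.75 to 0.24). None of these excluded a difference of zero.

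The coyote had 0.44 for NDUFS3, and the wolves averaged 0.59 ± 0.38 (SD, n = 13), with a difference of -0.15 (SE 0.29). For NDUFB9 the coyote had 0.80 and the wolves averaged 0.66 ± 0.25 (SD, n = 13), with a difference of 0.14 (SE 0.22). Both coyote values lay inside the range of the wolves, as did those of all 5 members above the bound, beside 6.78% of the probes above it outside that range. In the coyote NDUFV2 and NDUFB9 were above the mean of the wolves, and NDUFV1, NDUFS3 and the red cell score were below it. All of these lay inside the range of the wolves. Only its monocyte score, 0.148, lay outside, above the highest wolf (0.0681 in 11310). In that list FCER1G stood at 2.03 in the coyote and at most at 0.816 in a wolf, with a mean of 0.279 over wolves. TYROBP, the other monocyte gene above the bound, stood at 0.663 in the coyote, inside the wolves' 0.412 to 0.892. Of the 14 genes of the list, the coyote was above the range of the wolves in 2 and below it in 1. The score without FCER1G was not computed, so it is not read as a shift of the whole list.

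NDUFB4, an accessory subunit of the membrane arm, was the member with an unadjusted p under 0.05. It stood at 0.09 in the coyote, against -0.22, -0.11 and 0.05 as the lowest, median and highest wolf. The difference was 0.20 (SE 0.08), with an unadjusted p of 0.0133 and an adjusted p of 0.998 in limma's fit across all probes. All 14 levels were below the bound. The coyote was outside the range of the wolves in 5 members, beside 12.2% of all probes: above it in the 3 members NDUFA9, NDUFB8 and NDUFB4 (beside 5.76%) and below it in the 2 members NDUFA10 and NDUFB1 (beside 6.40%). NDUFA3 had the next largest negative difference after NDUFV1 and NDUFS7, -0.19, with 0.18 in the coyote. For the 30 members at or below the bound, differences lay between -0.19 and 0.20, and their 95% intervals between -0.47 and 0.36.

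**Figure D5:**
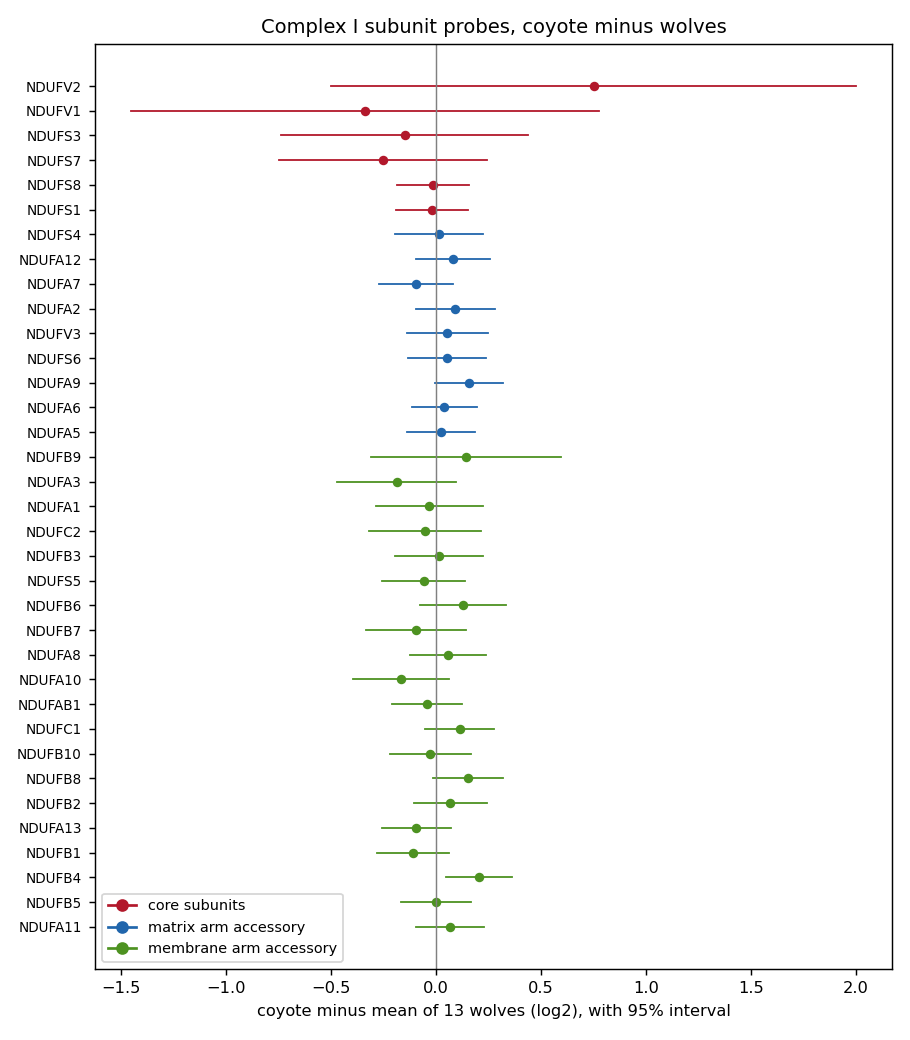
Difference of the coyote from the mean of the 13 wolves for each of the 35 complex I subunit probes, with its 95% interval from limma, on a log2 axis, coloured by arm of the enzyme. The intervals of NDUFV2 (-0.50 to 2.00) and NDUFV1 (-1.45 to 0.78) are the widest, and NDUFB4 has an interval that stays above zero before adjustment.

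Slides of 8 arrays also differed, and a slide holds arrays of several animals. With the animal kept in the model, 6 of 35 members differed between the 7 slides (limma, adjusted p under 0.05), beside 20.3% of all probes, and of the 5 above the bound 3 differed, beside 84.0%. NDUFV1 (adjusted p = 2.43e-17, limma) had a slide range of 1.73 on the log2 scale between slides 3 and 7, NDUFS7 (3.42e-13) a range of 1.15 and NDUFS3 (4.06e-07) a range of 0.65. The dim members NDUFA13, NDUFB10, an intermembrane-side subunit, and NDUFS8 differed as well, with ranges of 0.33, 0.29 and 0.34. NDUFV2 and NDUFB9 had ranges of 0.22 and 0.25 and did not pass (adjusted p = 0.253 and 0.0523, limma), beside a median range of 0.601 over the probes above the bound. Slide differences were removed before the wolves and the coyote were compared.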

How the data were processed

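RNA from whole blood was hybridised to 56 human Illumina arrays, 4 for each of 14 animals, on 7 slides. Per the submitters' processing notes, BeadStudio 1.5.0.34 read the signals. The authors deposited log2 intensity values, per the labels after centring by array medians. In the table, however, array means are 0, medians lie between -0.167 and -0.0325, and 95th percentiles between 0.332 and 1.24. The sources used here do not give whether background was subtracted. The number of animals, 13 wolves and 1 coyote, limits the precision, since the 4 arrays of an animal are technical repeats.

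The probe annotation gives 1 symbol for 18339 probes and none for 6015. The rule of the brightest probe per gene was needed for no member, since each has 1 probe. No canid genome was used, and no sequence is given.

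Tests were run in R 4.3.3 (limma 3.58.1, trend in eBayes), adjusted by Benjamini-Hochberg over 24354 probes, at 0.05. Wolves were compared by the F test of animal, with slide as a covariate; repeated arrays measure array noise only. The coyote was compared on 1 value per animal. Correlations over 13 wolves used 100000 two-sided permutations. Every member that passed the F test or lay above the bound was named; values per wolf are given for the 4 with the largest SD among those that did both. The coyote comparison names members past an unadjusted p of 0.05 and the largest differences. Members and lists were chosen with earlier results of these data known. Procedures were tested on simulated data. Alternatives were no slide term, 75th percentile centring, quantile normalization, dim probes left out, no trend, the 95th percentile of tissue genes as the bound, each animal, array or slide left out and, chosen after seeing the data, list scores from genes above the bound.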

Additional observations from a re-analysis of the deposited data

Results flagged for a closer look

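The 4 arrays of each animal were checked for an array far from the others, for NDUFV2, NDUFV1, NDUFS3 and NDUFB9, which made 56 groups of 4. In 1 of them, NDUFV2 in wolf 11148, an array stood at 1.26 while the other arrays stood between 1.46 and 1.48, and the gap was 0.891 of the whole range. Chance gives about 1 such group in 20. The level of NDUFV2 in this wolf was 1.40, and the difference among wolves remained past the test without that array.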

How the results depend on the processing

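Over 44 results and 1770 alternatives, 1667 were unchanged, 70 lost a call, 20 gained one and 13 turned sign. Unchanged means the same direction and side of the threshold or, for counts of members, a count close to the main one. The number of members that differed among wolves was 4 to 7, the number between slides 4 to 7, the number between coyote and wolves 0 and the number above the bound 5 in every alternative. NDUFV2, NDUFV1, NDUFS3 and NDUFB9 differed among wolves in all 77 alternatives each. NDUFS7 lost its call in 6 and NDUFA3 in 10, among them no slide term and leaving out wolf 11136 or slides 1 and 6. NDUFV2 with NDUFB9, and NDUFV1 and NDUFS3 with the red cell score, passed in all alternatives; NDUFV2 with the platelet score lost its call in 16 of 25. Sign changes were seen only in relations that did not pass. With the signal range, NDUFV2 had r = -0.0931 after quantile normalization, NDUFS3 ran from -0.0344 to 0.357 with each wolf left out, and NDUFB9 from -0.163 to 0.0777, with 0.0273 without slide 1 and 0.061 without slide 6. With scores from genes above the bound, r was 0.0746 for NDUFV1 with monocytes, 0.012 for NDUFV2 with T cells and 0.242 for NDUFV1 with T cells. With T cells and each wolf left out, NDUFV1 ran from -0.26 to 0.17 and NDUFS3 from -0.113 to 0.454, and NDUFB9 had 0.0966 after quantile normalization. Averaging the probes of a gene moved no member, since each has 1 probe. The cause of these changes was not tested. The dim signal of 30 of 35 members on human probes limits what can be said of them, and with 1 coyote only differences well beyond the spread of the wolves could pass.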
